A study of Mus musculus with 16 samples.

Results

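Transcripts of 10 genes that write, erase or protect DNA methylation were followed in mouse embryos at the 2-cell stage. The genes are Dnmt1, Dnmt3a, Dnmt3b, Dnmt3l, Uhrf1, Tet1, Tet2, Tet3, Dppa3 and Zfp57. They were chosen by name for these roles, and each matched 1 of the 49585 gene identifiers in the authors' deposited tables. The 3 groups of embryos compared are named here knockdown, LacZ control and non-injected. Knockdown embryos (6 libraries) came from zygotes microinjected with double-stranded RNA against Suv39h2, a histone H3 lysine 9 methyltransferase of constitutive heterochromatin. LacZ control embryos (6 libraries) came from zygotes given such RNA against LacZ, a gene of bacteria. Non-injected embryos (4 libraries) received neither. In all 3 groups the father was DBA and the mother an F1 hybrid (C57BL/6J × CBA/H), and the medium was KSOM, made for cleaving embryos. Polyadenylated RNA was read by Smart-seq2, which covers whole transcripts and keeps no record of the strand. The design text gives pools of 5 embryos per library, whereas the extraction protocol speaks of a single embryo, and the treatment protocol names Suv39h1 mRNA, which no group name carries. The labels do not say whether libraries of a group came from separate cultures or litters, so p-values measure the spread between these libraries only. Double-stranded RNA lowers a messenger RNA. Protein and DNA methylation were not analysed here. In whole embryos, fewer cells and less RNA per cell cannot be told apart.

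DNA methylation places a methyl group on cytosine, mostly where cytosine precedes guanine (a CG dinucleotide). Dnmt3a and Dnmt3b write new marks, in the oocyte together with the inactive cofactor Dnmt3l. Dnmt1 copies marks to the new strand after replication, guided by Uhrf1, which binds hemimethylated DNA and methylated lysine 9 of histone H3. The TET enzymes oxidise methylcytosine and so start its removal. After fertilisation Tet3 from the egg acts on the paternal genome, while Dppa3 (also called Stella or PGC7), which binds chromatin dimethylated at lysine 9 of histone H3, shields the maternal genome. Zfp57 binds methylated imprinting control regions and keeps their marks through cleavage.

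The tables hold 1 mean count over all libraries per gene and 1 fold change per comparison, so levels of single libraries and of single groups are not analysed here, and the depth of each library is unknown. The labelled stage was checked against marker genes. All 8 measured markers of the 2-cell stage, among them Zscan4c and Zfp352, had a mean count of at least 100 (256.7 to 2987), as did all 8 oocyte markers, whose transcripts the egg leaves behind (304.5 to 8077). Markers of cumulus and granulosa cells, which surround the egg, reached at most 49.8 (Kitl), and 5 of 11 were under 1. Sperm markers reached at most 7.78 (Prm2). Of 9 blastocyst markers, which a 2-cell embryo should hold little of, 2 had a mean count of at least 100 and 1 was under 1. The highest, Gata4 at 402.3, lay above the lowest markers of the 2-cell stage and of the oocyte, and the median was 17.4. Suv39h2 itself was lower in knockdown embryos, at -1.95 ± 0.28 (log2, standard error) over LacZ control and -1.79 ± 0.29 over non-injected in the authors' deposited tables (BH-adjusted p = 4.72e-08 and 2.21e-06). It stood at 0.16 ± 0.29 in LacZ control over non-injected in the authors' deposited table (BH-adjusted p = 0.998).

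Between knockdown and LacZ control embryos, none of the writers, erasers and protectors named at the outset passed the test. Against non-injected embryos, Tet1, one of the TET oxidases, was lower in knockdown embryos, and Dnmt3l, the cofactor of the de novo enzymes, was higher. The protectors Dppa3 and Zfp57, the oxidase Tet3 and the de novo enzyme Dnmt3a had fold changes within 0.45 of 0 on the log2 scale in all 3 comparisons, and none was called in any. A gene was called at a p under 0.05 after Benjamini-Hochberg (BH) adjustment over the genes of the table that DESeq2 gives one for.

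The sequences around the starts of the only called genes, Tet1 and Dnmt3l, are shown. They hold different numbers of the CG dinucleotide, where methyl groups are mostly placed. They are RefSeq starts on GRCm38.p6, from 250 bases before the start to 50 after it, read 5′ to 3′ on the gene's own strand, with every CG in capitals. RefSeq gives 1 start for Tet1 (chr10:62887275-62887574, minus strand) and 3 for Dnmt3l (chr10:78042037-78042336, chr10:78049592-78049891 and chr10:78055085-78055384, plus strand). The counts are per gene and do not say which start was used.

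Tet1: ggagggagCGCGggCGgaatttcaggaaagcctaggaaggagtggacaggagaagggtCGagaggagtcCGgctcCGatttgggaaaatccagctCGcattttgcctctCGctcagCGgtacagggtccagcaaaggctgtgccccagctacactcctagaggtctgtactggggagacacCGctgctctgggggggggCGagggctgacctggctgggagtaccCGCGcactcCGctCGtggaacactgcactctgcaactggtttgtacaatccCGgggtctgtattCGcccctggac

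Dnmt3l, first start: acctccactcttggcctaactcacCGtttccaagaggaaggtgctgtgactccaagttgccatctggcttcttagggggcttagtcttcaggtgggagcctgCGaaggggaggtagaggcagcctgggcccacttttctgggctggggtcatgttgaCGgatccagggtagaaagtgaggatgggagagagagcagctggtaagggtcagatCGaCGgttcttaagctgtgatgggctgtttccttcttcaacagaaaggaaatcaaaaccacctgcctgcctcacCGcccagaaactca

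Dnmt3l, second start: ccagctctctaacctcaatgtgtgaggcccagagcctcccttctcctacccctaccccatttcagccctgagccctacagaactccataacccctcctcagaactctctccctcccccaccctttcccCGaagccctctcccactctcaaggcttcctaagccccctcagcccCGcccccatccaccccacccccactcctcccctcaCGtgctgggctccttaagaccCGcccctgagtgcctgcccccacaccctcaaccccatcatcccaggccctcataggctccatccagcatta

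Dnmt3l, last start: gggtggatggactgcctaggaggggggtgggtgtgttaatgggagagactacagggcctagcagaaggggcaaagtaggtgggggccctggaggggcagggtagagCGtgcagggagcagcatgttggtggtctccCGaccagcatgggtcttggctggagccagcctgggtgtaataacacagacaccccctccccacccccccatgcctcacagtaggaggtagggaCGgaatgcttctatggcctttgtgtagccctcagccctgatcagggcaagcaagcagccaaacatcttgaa

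The Tet1 window holds 17 CG dinucleotides, and the Dnmt3l windows hold 6, 4 and 3. The letters CG read the same on both strands, 94.6% of the 32851 RefSeq windows of this length hold at least 1, and the median is 7. Of the 10 genes 9 have a window in the RefSeq table, 18 windows in all. The Tet2 window was the richest at 57 CG, ahead of 46 and 47 at 2 of the Dnmt3a starts and 30 at Dnmt3b. Dnmt1 and Uhrf1 each have a start with 33 CG beside poorer ones, of 2 and 12 for Dnmt1 and 12 for Uhrf1. The 3 Zfp57 windows hold 6, 9 and 4. Methylation of these windows was not measured.

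Levels were set against each other as the mean normalized count per kb of exon, since longer transcripts collect more reads. Dppa3, a small gene with 892 exon bases, was far above the others at 29807 per kb, in the top percentile of the genes tested. Zfp57, the other protector, followed at 382.9 per kb, so that Dppa3 exceeded it 77.9-fold. Dnmt3l stood at 244.4 and Uhrf1 at 173.9 per kb. Tet3 was the most abundant oxidase at 109.0 per kb, 4.52-fold above Tet1 (24.1), which was in turn 10.2-fold above Tet2 (2.37). Dnmt1 (59.5), Dnmt3a (57.4) and Dnmt3b (40.5) lay close together, and Dnmt3l exceeded Dnmt3b 6.04-fold. The median over the 14917 genes tested with a known length was 32.2 per kb, which 8 of the 10 genes exceeded, all but Tet1 and Tet2. The length joins all annotated exons of a gene, so it may exceed that of the transcript present. By mean count alone, Tet1 (372.7) ranked above 74.7% of the genes tested and Tet2 (39.9) above 29.7%. With 1 mean per gene, the differences between neighbours in this order, such as Dnmt1 and Dnmt3a, were not tested.

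On GRCm38 with GENCODE vM21 all 10 genes are protein-coding and lie apart on 7 chromosomes. The writers Dnmt3a (chr12:3806007-3914443) and Dnmt3b (chr2:153649450-153687730) lie on the plus strand. Dnmt1 (chr9:20907209-20959888) lies on the minus strand and Uhrf1 (chr17:56303321-56323486) on the plus strand. Tet2 (chr3:133463679-133545139) and Tet3 (chr6:83362373-83459084) lie on the minus strand. Dppa3 (chr6:122626410-122630272) and Zfp57 (chr17:37001163-37010635) lie on the plus strand. Tet1 and Dnmt3l, both on chromosome 10, are given with their results.

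**Figure D1:**
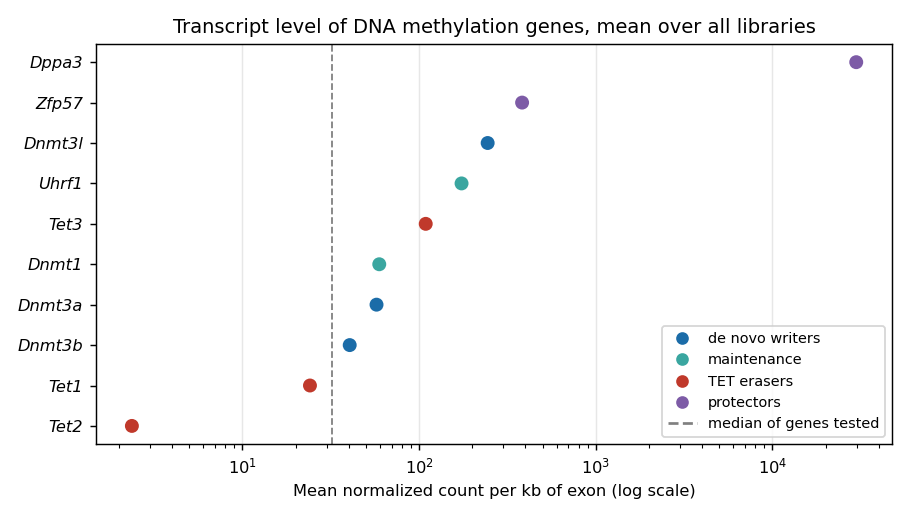
Mean normalized count per kb of exon over all libraries (log axis) for the 10 genes, coloured by role, with the median of the genes tested as a dashed line. Dppa3 lies at 29807 per kb, and Tet1 and Tet2, at 24.1 and 2.37, lie below the median of 32.2.

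Knockdown and LacZ control embryos, both injected, differ in the target of the double-stranded RNA, and this comparison asks what the loss of Suv39h2 messenger RNA adds to injection. Of the 10 genes 0 were called by DESeq2, against 0.899% of the 15572 genes tested. At an unadjusted p under 0.05 there were 3, Dnmt3b, Dnmt3l and Tet1, beside 14.7% of all genes tested. The median log2 fold change of the 10 was 0.16, against 0.02 over all genes tested.

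Among the writers, Dnmt3b had the greatest fold change of the 10 in this comparison, 0.72 ± 0.28 in the authors' deposited table (unadjusted p = 0.0101, adjusted p = 0.171), with a 95% interval of 0.16 to 1.27. Dnmt3l stood at 0.51 ± 0.17 in the authors' deposited table and had the smallest adjusted p of the 10, 0.104 (unadjusted p = 0.00325). Dnmt3a, their partner, stood at 0.08 ± 0.16 in the authors' deposited table, with an interval of -0.24 to 0.40 that ends well short of a 2-fold change. The maintenance pair had wide intervals. Dnmt1 stood at 0.23 ± 0.29 and Uhrf1 at 0.48 ± 0.38 in the authors' deposited table (BH-adjusted p = 0.759 and 0.611), and the Uhrf1 interval ran from -0.26 to 1.22, past a 2-fold rise.

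The TET genes did not share a direction. Tet1 stood at -0.45 ± 0.22 in the authors' deposited table (BH-adjusted p = 0.315), Tet2 at 0.30 ± 0.31 (0.683) and Tet3 at 0.04 ± 0.23 (0.962). Of the protectors, Dppa3 stood at -0.45 ± 0.23 in the authors' deposited table (BH-adjusted p = 0.368) and Zfp57 at -0.13 ± 0.19 (0.802). The 95% intervals of 8 of the 10 genes lay within 1 log2 unit of 0 on either side, and those of Dnmt3b and Uhrf1 did not.

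Knockdown against non-injected embryos combines injection, double-stranded RNA and the loss of Suv39h2 messenger RNA. Here 2 of the 10 genes were called, 1 lower and 1 higher, while 15.2% of the 14948 genes tested were called, so the share of these genes was near that of all genes. Their median log2 fold change was 0.09, against 0.05 over all genes tested. Tet1 (ENSMUSG00000047146.15, chromosome 10 of GRCm38, 62804570 to 62908996, minus strand, protein-coding) fell by 0.94 ± 0.23 (log2) in the authors' deposited table (BH-adjusted p = 0.00202). This is 0.520 of the non-injected level, with a 95% interval of 0.379 to 0.713. Dnmt3l (ENSMUSG00000000730.13, chromosome 10, 78041947 to 78063622, plus strand, protein-coding) rose by 0.65 ± 0.18 in the authors' deposited table (BH-adjusted p = 0.00700), a 1.57-fold difference with an interval of 1.23 to 2.01. Both calls held under each of the 7 alternative adjustments, filters and thresholds, although a threshold of 0.1 could not undo them. All 7 start from the deposited statistics, so they do not test the authors' model or single libraries. In the 5 that recompute the adjusted p, it ranged from 0.000973 to 0.00387 for Tet1 and from 0.00447 to 0.0140 for Dnmt3l.

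The other writers were not called against non-injected embryos. Dnmt3b stood at 0.70 ± 0.30 in the authors' deposited table (BH-adjusted p = 0.0874), a point estimate above that of Dnmt3l with a larger error. Dnmt3a stood at 0.06 ± 0.17 in the authors' deposited table (BH-adjusted p = 0.855). Uhrf1 had the highest value of the 10 in this comparison, 0.75 ± 0.39 in the authors' deposited table, and yet was not called (BH-adjusted p = 0.187). Dnmt1 stood at -0.24 ± 0.30 in the authors' deposited table (BH-adjusted p = 0.626).

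Tet2 rests on the lowest mean count of the 10, 39.9. The other TET genes stood above 0, Tet2 at 0.70 ± 0.33 and Tet3 at 0.11 ± 0.24 in the authors' deposited table (BH-adjusted p = 0.119 and 0.791). The Tet3 interval, -0.36 to 0.59, does not reach the Tet1 estimate of -0.94, although the difference between the genes was not tested. Dppa3 stood at -0.07 ± 0.24 and Zfp57 at 0.00 ± 0.20 in the authors' deposited table (BH-adjusted p = 0.905 and 0.992). The Zfp57 interval of -0.40 to 0.40 was among the narrow ones.

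Markers of stage moved in the same comparison. Of the 8 oocyte markers 5 were called higher in knockdown embryos than in non-injected ones (median 0.74), and of the 8 markers of the 2-cell stage also 5 (median 0.89), with 0 lower in either list. Over all genes tested 15.2% were called there in either direction. Of 9 blastocyst markers 6 were tested, and 4 were higher, Krt18, Krt8, Gata3 and Sox17, and 1 lower, Gata4, names given after their values were seen. The median of the 6 was 1.23. Of 11 cumulus and granulosa markers 5 were tested and 0 called by DESeq2, with 2 of the 11 higher at an unadjusted p under 0.05, and no sperm marker had an adjusted p. In LacZ control over non-injected 2 of the 2-cell markers (median 0.72) and 0 of the oocyte markers (median 0.46) were called higher. DESeq2 called 0 of the 9 blastocyst markers there (median 0.13), and 0.792% of all genes tested. At an unadjusted p under 0.05, 5 of the 2-cell, 3 oocyte and 2 blastocyst markers were higher there, and 0 lower. Of all genes tested, 7.39% had such a p. Between knockdown and LacZ control embryos DESeq2 called 0 oocyte, 2-cell or blastocyst markers (medians 0.29, -0.05 and 0.66), and 0.899% of all genes tested. At an unadjusted p under 0.05, 1 oocyte, 1 2-cell and 2 blastocyst markers were higher, and 1 blastocyst marker was lower. Such a p was found for 14.7% of all genes tested. The part of stage markers in the Tet1 and Dnmt3l results was not tested.

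LacZ control against non-injected embryos shows what injection and double-stranded RNA do without the knockdown. DESeq2 called 0 of the 10 genes, against 0.792% of the 29288 genes tested, and Tet1 alone had an unadjusted p under 0.05 (0.0353), beside 7.39% of all genes tested. The median log2 fold change of the 10 was 0.11, against 0.00 over all genes tested. Tet1 stood at -0.49 ± 0.24 in the authors' deposited table (BH-adjusted p = 0.595) and Dnmt1 at -0.47 ± 0.31 (0.867), the lowest values of the 10. Tet2 stood at 0.41 ± 0.33 and Dppa3 at 0.38 ± 0.25 in the authors' deposited table (BH-adjusted p = 0.993 and 0.881), the highest. Dnmt3a and Dnmt3b both stood at -0.02, with errors of 0.18 and 0.30, in the authors' deposited table. Dnmt3l stood at 0.14 ± 0.19, Uhrf1 at 0.27 ± 0.39, Tet3 at 0.08 ± 0.25 and Zfp57 at 0.14 ± 0.21 in the authors' deposited table, all with an adjusted p of 0.998.

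**Figure D2:**
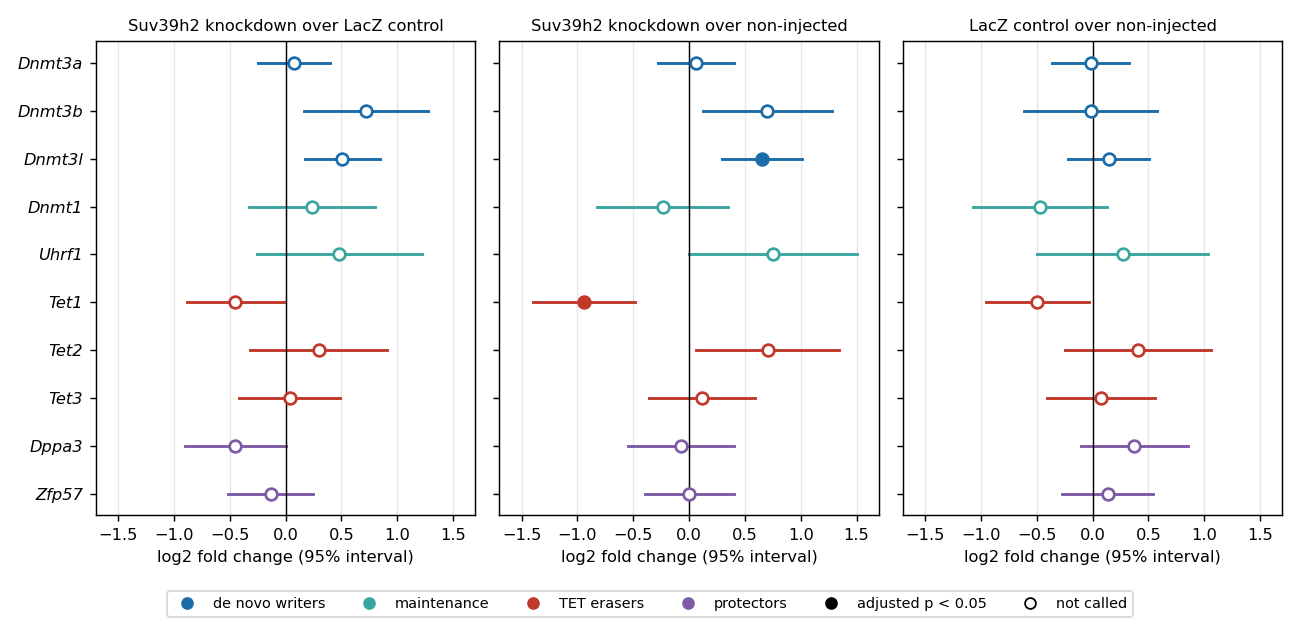
Log2 fold changes of the 10 genes in the authors' deposited tables, with 95% intervals from the deposited standard errors, in 1 panel per comparison. Filled points passed an adjusted p of 0.05, which only Tet1 (-0.94) and Dnmt3l (0.65) did, in knockdown over non-injected.

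The 3 comparisons are not independent. They share the same libraries, so for each gene the other comparisons add up to knockdown over non-injected, with a largest difference of 4.67e-10 among the 10. The sums differ in make-up. For Tet1 the step from non-injected to LacZ control (-0.49) and the step from LacZ control to knockdown (-0.45) were of like size, and neither was called alone. For Dnmt3l most of the sum came from the step to knockdown (0.51, against 0.14 for injection), and for Dnmt3b all of it (0.72, against -0.02). Dppa3 stood at -0.45 in the step to knockdown and 0.38 in the step to LacZ control, and Dnmt1 at 0.23 and -0.47, which add up to -0.07 and -0.24. The difference between the steps was not tested for any gene, since the tables hold no covariance of the estimates.

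**Figure D3:**
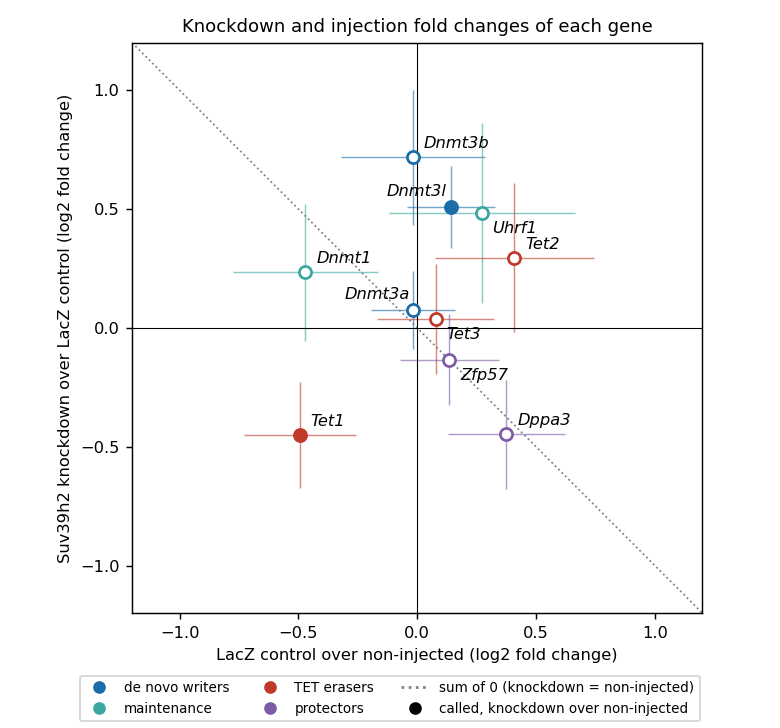
Log2 fold change of knockdown over LacZ control against that of LacZ control over non-injected for the 10 genes, with bars of 1 standard error. Both axes share the LacZ control libraries, and points on the dotted line have equal levels in knockdown and non-injected embryos, where Dppa3 (-0.45 and 0.38) lies close and Tet1 (-0.45 and -0.49) does not.

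The precision of the estimates differed between genes of like mean count. The standard error of Uhrf1 in knockdown over non-injected, 0.39, was higher than that of 99.8% of the 2946 genes tested with a mean count within 2-fold of its own (740.6), whose median was 0.23. Dnmt1 ranked at 91.3% by the same measure. Dnmt3a and Dnmt3l were at the other end, with standard errors (0.17 and 0.18) higher than those of only 4.28% and 5.76% of the genes with like counts. Dnmt3l was called at 0.65, and Uhrf1 was not at 0.75. Which libraries made Uhrf1 vary was not tested.

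**Figure D4:**
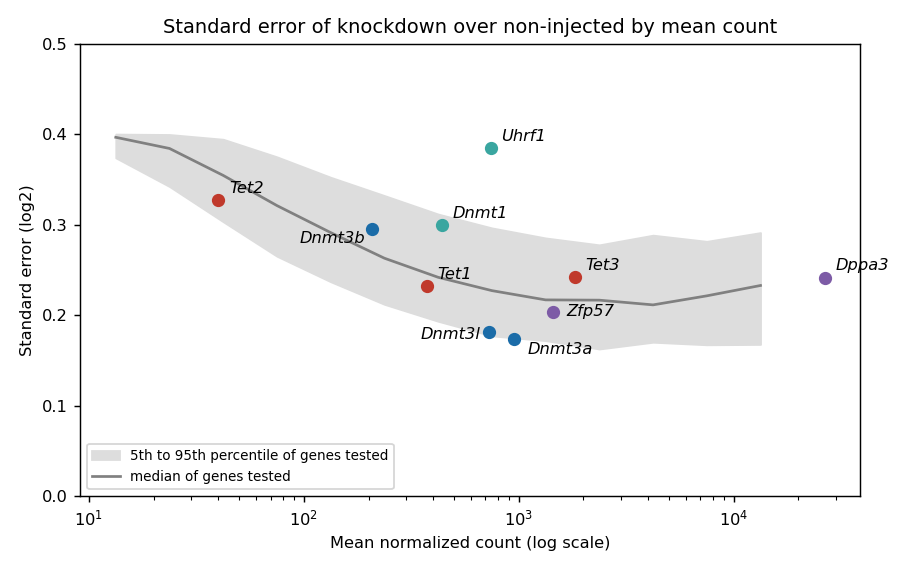
Standard error of the log2 fold change, knockdown over non-injected, against mean normalized count (log axis) for the 10 genes. The grey band spans the 5th to 95th percentile of the genes tested, and Uhrf1 (0.39) lies above it.

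Some of these genes have close copies, to which reads may be lost. Of the 50-base stretches of Uhrf1 transcripts, 15.4% also stand in transcripts of other genes, nearly all in the processed pseudogene Gm5648 on chromosome X, which had a mean count of 2.15. For Dppa3 the share was 16.5%, mostly with the pseudogene Dppa3-ps on chromosome X. Dppa3-ps had a mean count of 37.2, or 0.140% of that of Dppa3, and stood at -0.45 ± 0.32 in knockdown over LacZ control in the authors' deposited table, beside -0.45 for Dppa3. Dnmt3b shared 9.81% of its stretches with its neighbour Dnmt3c, a de novo enzyme of the male germline with a mean count of 27.7. Dnmt3c stood at 0.00 ± 0.36 in knockdown over LacZ control in the authors' deposited table, where Dnmt3b stood at 0.72. The share was under 1% for each of the other 7 genes. Without strand, reads of antisense genes cannot be told apart: the exons of Dnmt3l overlap those of Aire on 67 bases, those of Dnmt3a overlap Dnmt3aos on 133 and those of Tet2 overlap Gm42567 on 43. Aire had 3.84% of the mean count of Dnmt3l and stood at 0.85 ± 0.34 in knockdown over non-injected in the authors' deposited table (BH-adjusted p = 0.0748).

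Pattern likeness was measured for the 2 called genes as the distance between the log2 fold changes of knockdown over LacZ control and of LacZ control over non-injected, so over 2 values only. These add up to knockdown over non-injected, so like fold changes in that comparison follow from how the genes were chosen. Nearest to Tet1 among 3531 protein-coding genes of like count were Rps15, a protein of the small ribosomal subunit (distance 0.00755), and Kif18b, a mitotic kinesin (0.00876). Both were called lower in knockdown than in non-injected embryos, by the authors' deposited table at -0.94 and -0.95 (BH-adjusted p = 0.000827 and 0.0281). Nearest to Dnmt3l among 2775 genes were Lrpap1, a chaperone of lipoprotein receptors (distance 0.0164), and Fbxo43, also called Emi2, an inhibitor of the anaphase-promoting complex in eggs (0.0241). In knockdown over non-injected they stood at 0.66 each in the authors' deposited table (BH-adjusted p = 0.0337 for Lrpap1 and 0.107 for Fbxo43).

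The wider methylation machinery was described by 5 gene lists. Between knockdown and LacZ control embryos these held 1 call, Gadd45a, a stress gene linked to DNA repair and demethylation, which fell by 1.10 ± 0.27 in the authors' deposited table (BH-adjusted p = 0.0132). The 5 lists had 15, 17, 16, 18 and 15 genes tested there, and 0.899% of all genes tested were called. Between LacZ control and non-injected embryos they held 0 calls by DESeq2, beside 0.792% of all genes tested. At an unadjusted p under 0.05, 1 gene was higher and 6 lower over the 5 lists, beside 7.39% of all genes tested. The lists had 16, 17, 18, 19 and 15 genes tested in that comparison. The values below are for knockdown over non-injected, where 15.2% of all genes tested were called and their median was 0.05. No list was tested against that background.

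Readers of methylated DNA and partners of maintenance had 1 call in 15 genes tested (median -0.09), Cdca7l, a relative of the Hells activator Cdca7, at 0.70 ± 0.21 in the authors' deposited table (BH-adjusted p = 0.0111). Genes that protect imprints or set methylation in the oocyte had 1 call higher and 2 lower in 17 (median -0.15), a share near the 15.2% of all genes. Setd2, which writes the histone H3 lysine 36 mark that guides de novo methylation in mouse oocytes, fell by 0.76 ± 0.19, and Arid4a fell by 0.75 ± 0.24 in the authors' deposited table (BH-adjusted p = 0.00311 and 0.0223). Khdc3, of the subcortical maternal complex, rose by 0.75 ± 0.27 in the authors' deposited table (BH-adjusted p = 0.0417). Base excision repair and active demethylation had 2 calls higher and 1 lower in 15 (median -0.25). Polb, the repair polymerase, rose by 0.87 ± 0.22 and Hmces, which binds abasic sites, by 0.58 ± 0.19, while Gadd45a fell by 0.95 ± 0.28 in the authors' deposited table (BH-adjusted p = 0.00209, 0.0219 and 0.00890).

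In the methionine and S-adenosylmethionine cycle 4 genes were called lower and 2 higher of 18 tested (median 0.01), beside 15.2% called in either direction over all genes. Mat2a makes S-adenosylmethionine, the methyl donor of the writers Dnmt1, Dnmt3a and Dnmt3b. Mat2a fell by 1.15 ± 0.23, and Mtrr, which reactivates methionine synthase, by 0.996 ± 0.22 in the authors' deposited table (BH-adjusted p = 9.37e-05 and 0.000585). Pemt, a phospholipid methyltransferase, fell by 0.73 ± 0.22 and Shmt1, a folate enzyme, by 0.60 ± 0.18 in the authors' deposited table (BH-adjusted p = 0.0113 and 0.0129). The genes called higher, named after their values were seen, were Mat1a, another S-adenosylmethionine synthetase gene, and Mthfd2, a mitochondrial folate enzyme. Mat1a rose by 0.86 ± 0.35 and Mthfd2 by 0.62 ± 0.20 in the authors' deposited table (BH-adjusted p = 0.0446 and 0.0179). The mean count of Mat1a was low at 33.3, beside 2385 for Mat2a. Among genes for 2-oxoglutarate and iron, which TET enzymes need, 3 were lower and 1 higher of 15 (median -0.12). Idh3g, a subunit of mitochondrial isocitrate dehydrogenase, fell by 1.08 ± 0.28 and Tfrc, the transferrin receptor, by 0.59 ± 0.18 in the authors' deposited table (BH-adjusted p = 0.00271 and 0.0133). Idh1, the cytosolic isocitrate dehydrogenase, rose by 1.12 ± 0.36 from a low mean count of 51.9 in the authors' deposited table (BH-adjusted p = 0.0304). Exons of Cdca7l, Gadd45a, Mat2a, Shmt1, Hmces and Polb overlap a gene on the opposite strand, and those of Khdc3 overlap Gm20509 on its own strand, so these values are uncertain for that reason.

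**Figure D5:**
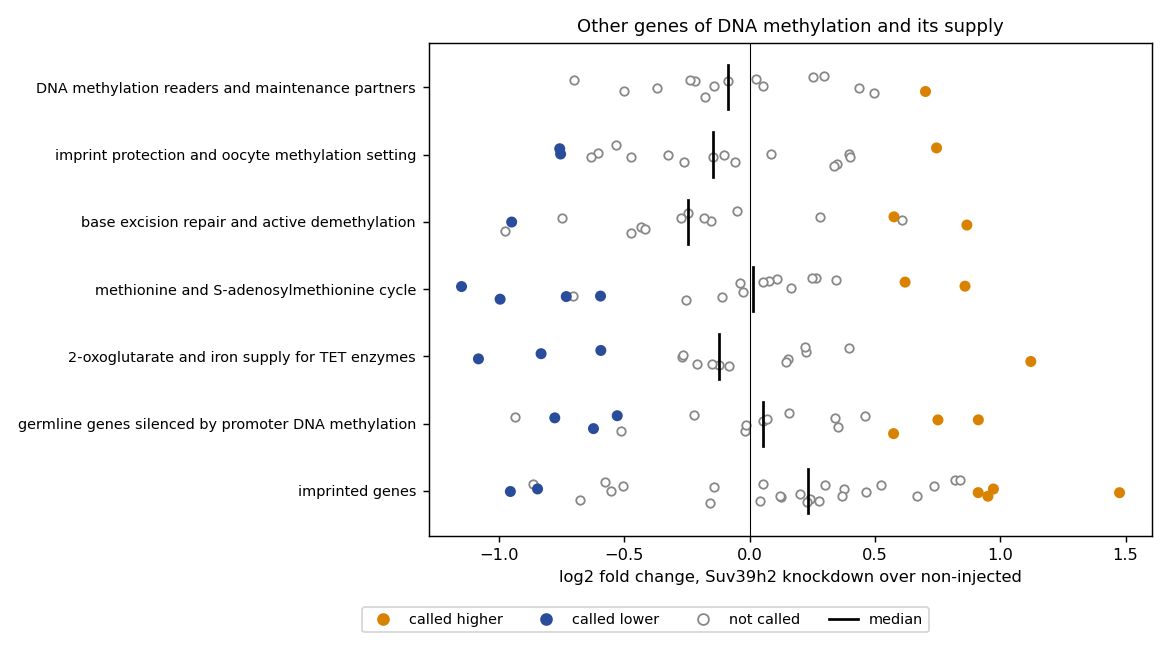
Log2 fold changes of knockdown over non-injected for the tested genes of 7 lists, 1 point per gene, with called genes filled and the median of each list as a bar. Called genes lie on both sides of 0 in 6 of the 7 lists, and Mat2a (-1.15) is the lowest point.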

How the data were processed

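The values are those of 3 gene tables deposited by the authors, 1 per pair of groups. The submitters' processing notes name the build GRCm38.p5 and, without their order, the tools STAR 2.5.2b, SAMtools, HTSeq 0.9.1 and DESeq2 1.18.1. The groups each table compares, RUVseq and shrinkage of fold changes are known only from the names of the tables, and no source used here names the annotation release. The deposited mean normalized count is, per the file headers, a signal averaged over libraries. Beside it the authors deposited the log2 fold change and its error, the Wald statistic (a score) and the p-value, raw and adjusted. Shrinkage pulls noisy fold changes towards 0.

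The tests are the authors'. Identifiers were matched to GENCODE vM21 (GRCm38) without version (99.5% matched), which also gave positions and exon lengths. Tet1 has another version there, so its length may differ. Intervals of 95% are the deposited fold change plus or minus 1.96 deposited standard errors. With shrinkage these intervals are approximate and need not match the deposited p-values. Own adjustment was by Benjamini-Hochberg (numpy 2.4.6, scipy 1.17.1), tested on simulated data, and gave the deposited adjusted p-values back within 1.84e-05. Alternatives changed the genes adjusted over, the count minimum (10 or 100), the threshold (0.01 or 0.1) and the centring. Members, lists and tests were chosen with earlier results of these data known, and shared 50-base stretches and ranks of standard errors after seeing them. Named genes were all 10 members, list genes called in knockdown over LacZ control, up to 4 called genes per list otherwise by smallest adjusted p, and the 2 nearest in pattern of each called member. Of these, 1 is not reported here. Tables of repeats were not used, and 0 columns hold single libraries.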

Additional observations from a re-analysis of the deposited data

How the results depend on the processing

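The call of Tet1 and Dnmt3l in knockdown over non-injected held under the 7 alternatives, and no member was called in the other comparisons under any of them. The medians of the members moved by less than the members' median standard error under the alternatives run. Of 207 results of single genes under the alternatives, 205 kept their direction and their side of the threshold. Results at the other thresholds reuse the deposited adjusted p. A stricter threshold could not add a call, and a looser threshold could not remove any. Only centring could change a direction, so the count overstates how far these results were tested. Dnmt3b in knockdown over non-injected passed at a threshold of 0.1 (BH-adjusted p = 0.0874). Zfp57 in the same comparison, at 0.00 as deposited, changed sign when centred on the median of all genes (BH-adjusted p = 0.907), which is what subtracting 0.05 does. No paired analysis was possible because the tables carry no values of single libraries, and for the same reason edgeR and leaving out replicates were not run. Depth is unknown, and the error of Uhrf1, Tet2, Dnmt1 and Dnmt3b limits what can be said of them.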

Other observations

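Genes that depend on DNA methylation for their silence or their parental expression were counted in both directions. Of 17 germline genes with promoters that methylation silences in later embryos, all of them tested, 3 were called higher and 3 lower in knockdown over non-injected (median 0.05, against 0.05 over all genes tested). Over all 14948 genes tested 15.2% were called in either direction. Dazl, a germ-cell RNA-binding protein, rose by 0.91 ± 0.25 and Sycp3, of the meiotic chromosome axis, by 0.75 ± 0.22 in the authors' deposited table (BH-adjusted p = 0.00539 and 0.0116). Rpl10l, a ribosomal protein of the testis, fell by 0.78 ± 0.21 and Brdt, a germ-cell bromodomain protein, rose by 0.57 ± 0.18 in the authors' deposited table (BH-adjusted p = 0.00541 and 0.0171). Chpt1, on the opposite strand, overlaps 52.2% of the Sycp3 exon bases. DESeq2 called 0 of the 17 in knockdown over LacZ control (3 lower at an unadjusted p under 0.05) and 0 in LacZ control over non-injected (3 higher). Of all genes tested, 0.899% and 0.792% were called in these comparisons, and 14.7% and 7.39% had an unadjusted p under 0.05.

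Of 41 imprinted genes 30 were tested in knockdown over non-injected, and 4 were higher and 2 lower, beside 15.2% called over all genes tested. Their median was 0.23, against 0.05 over all genes tested. No test set either list against all genes. Meg3, a maternally expressed long noncoding RNA, rose by 1.48 ± 0.31 and Gnas, a signalling protein locus, by 0.97 ± 0.23 in the authors' deposited table (BH-adjusted p = 0.000273 and 0.00169). Usp29 fell by 0.85 ± 0.21 and Igf2r, a maternally expressed growth factor receptor, by 0.96 ± 0.27 in the authors' deposited table (BH-adjusted p = 0.00210 and 0.0119). Exons of Meg3, Gnas and Usp29 overlap genes on the opposite strand. Meg3 was also higher in LacZ control embryos over non-injected ones, at 1.13 ± 0.32 in the authors' deposited table (BH-adjusted p = 0.0452). It was the only call of these lists in that comparison, where 39 imprinted genes were tested and 0.792% of all genes were called. DESeq2 called 0 of 30 imprinted genes tested in knockdown over LacZ control (5 higher and 3 lower at an unadjusted p under 0.05). Over all genes tested 0.899% were called there, and 14.7% had an unadjusted p under 0.05. Parental alleles were not separated in these counts.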
